A study of Mus musculus with 10 samples.

Results

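The genes described here are 39 mouse genes of the p53 response and of apoptosis, listed by symbol: p53 itself with its inhibitors, genes that p53 is known to switch on, and the BCL2 family, caspases and inhibitors of apoptosis that carry out or restrain cell death. All 39 were found by Ensembl identifier among the 55359 genes of the table, and all 39 passed the filter on low values. The rule names the genes and uses no measured value, though the list was drawn up with earlier results of these data known. RNA was sequenced from 10 orthotopic pancreatic tumors, 5 grown in normoglycemic mice on regular water (CTRL) and 5 in mice made hyperglycemic by 14 days of 30% dextrose in their drinking water (D30). Tumors in both groups came from the same line, KPC K8484, luciferase-expressing mouse pancreatic cancer cells that carry Trp53 R172H/+ and come from the Pdx1-Cre model, injected into the tail of the pancreas of C57BL/6J mice aged 10 weeks. The study states equal numbers of males and females for its orthotopic experiments, and the sex behind each column of the table is not given. Reads on Y-linked genes were found in T4, a D30 tumor, and in no other tumor, so the sequenced tumors may not be balanced by sex. A single line stands for the tumor model, the sample titles call the tumors PDX although their source is given as the KPC cells, and the comparison asks what hyperglycemia changes in tumors whose p53 is mutant. Whether K8484 cells keep the wild-type Trp53 allele cannot be read from gene-level counts.

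p53 is a transcription factor that is kept low by MDM2, an enzyme that marks it for destruction and whose gene p53 itself switches on. When DNA damage or other stress frees p53, it binds paired copies of a short sequence, the p53 half-site, near genes that stop the cell cycle, repair DNA or open the mitochondrial outer membrane through BAX, BAK and the BH3-only proteins. The allele Trp53 R172H changes a residue of the DNA-binding domain, and the mutant protein is known to lose most binding to such sites and to accumulate in tumor cells. Many of these genes respond to other stresses as well, among them Gdf15, Ddit4, Pmaip1 and Tnfrsf10b, which are known targets of the integrated stress response.

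Values below are normalized counts, the reads of a gene divided by 1 size factor per tumor. Each tumor carries the name of its column, N1, N2, N4, N5 and N6 for CTRL and T1, T2, T4, T5 and T7 for D30, and values are given in this order. Recovered reads per tumor numbered 29915331 to 42122304 in CTRL and 29192261 to 37126175 in D30. A log2 fold change is D30 minus CTRL on log2(normalized count + 1), given with its SE, and the adjusted p is from limma over 24560 tested genes. The scale understates changes of genes with few counts. The D30 tumors T4 and T5 stood apart from the others. T4 or T5 held the highest or the lowest value of 35 of the 39 genes (89.7%), against 74.1% of all tested genes. T4 was also the only tumor with reads on 4 Y-linked genes, 841 of them, and its short genes were high, by a median of 0.90 (log2) in the 25% of genes with the shortest exons against -0.36 in the 25% with the longest. Among the 39 genes, 11 of the 13 with the shortest exonic length were higher in T4 than the mean of the other tumors (median 0.83), and 6 of the 13 longest were (median -0.54). For members whose values rest on T4 or T5, the log2 fold change without these 2 tumors is given as well, an alternative chosen after the data were seen.

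Btg2 and Gdf15 rose in D30 tumors and no other member passed the test. These 2 of 39 genes are 5.13% of the list, where 2.76% of all tested genes were called (678), 1.40% higher and 1.36% lower in D30. Both are genes that p53 can induce. Mdm2, Cdkn1a, Ccng1 and Bax, widely used readouts of p53, had log2 fold changes of 0.32, 1.02, 0.07 and 0.38 that did not pass the test. The groups did not overlap for 4 members, Btg2, Gdf15, Phlda3 and Perp, all higher in D30. That is 10.3% of the list against 6.19% of all tested genes, or 2.87% counting only those higher in D30. An unadjusted p under 0.05 was reached by 10 members, 7 higher and 3 lower, 25.6% of the list against 17.3% of all genes. The median log2 fold change of the 39 genes was 0.07, with 21 above 0 and 18 below, where the median of all tested genes was -0.06. Across roles, the called genes were 1 of 6 cell cycle arrest targets and 1 of 6 stress, metabolism and repair targets. None of the 3 genes of p53 and its inhibitors, the 10 of the BCL2 family, the 8 death receptors and other death targets, or the 6 of the caspases, apoptosome and inhibitors of apoptosis passed the test in limma. Their counts at an unadjusted p under 0.05 were 0, 5, 3 and 0. DESeq2 on the recovered reads called 5 members (Btg2, Gdf15, Pmaip1, Phlda3 and Perp), where it called 8.17% of the genes it tested, and edgeR called Btg2 and Gdf15, with 4.13% of all. Without T4, limma called 7 members against 6.43% of all genes: Btg2, Gdf15, Phlda3, Perp, Bbc3 and Tnfrsf10b, higher in D30, and Bid, lower. Without T4 and T5 it called 7 against 9.97%: Btg2, Gdf15, Phlda3, Bbc3 and Tnfrsf10b, higher, and Trp53inp1 and Plk2, lower.

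**Figure D1:**
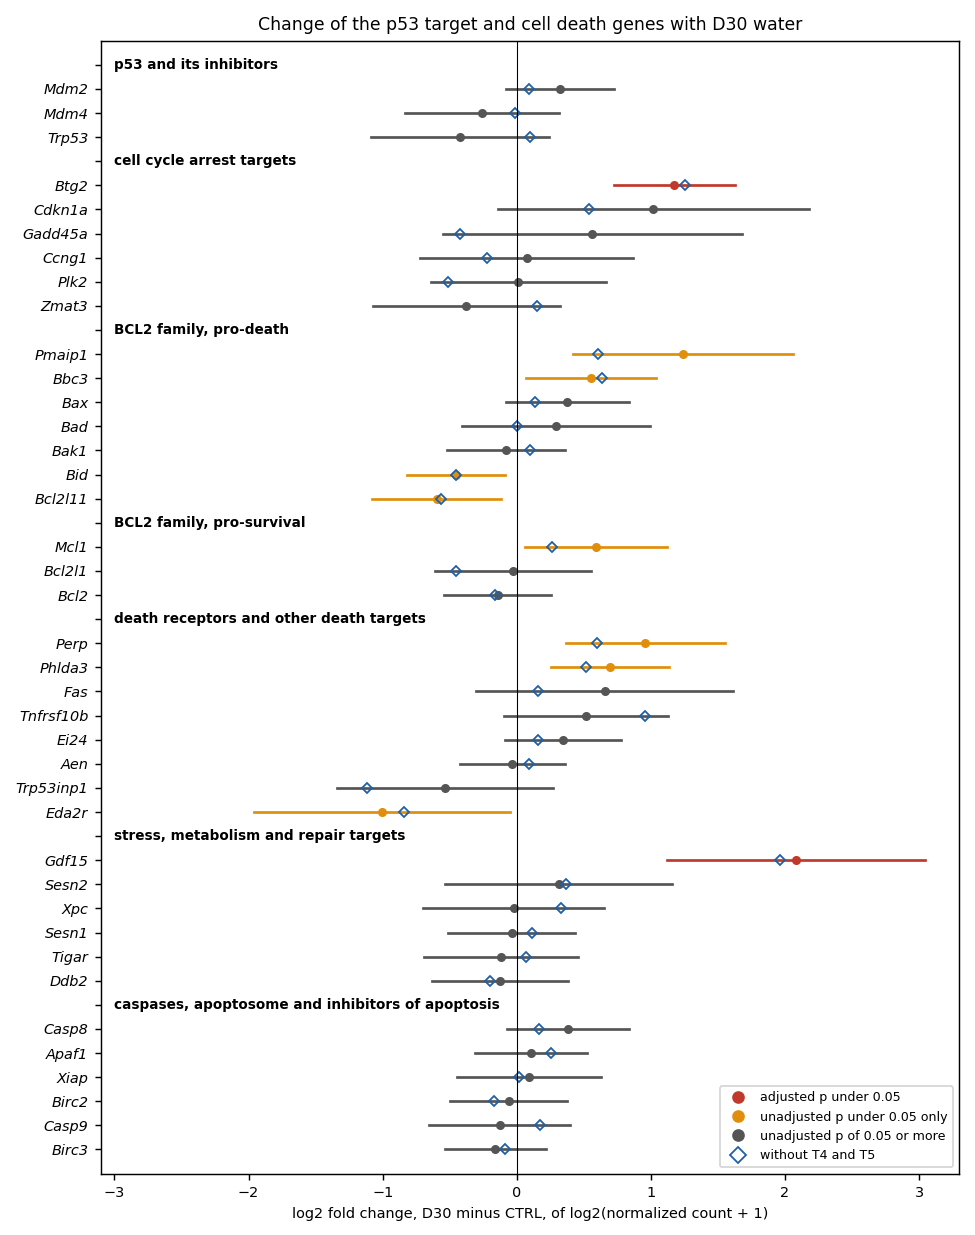
Log2 fold change (D30 minus CTRL, x axis) of the 39 genes grouped by role, with 95% confidence intervals of the limma fit as bars, and open diamonds for the value without the D30 tumors T4 and T5. The intervals of Btg2 (1.18) and Gdf15 (2.08) lie far above 0 and their diamonds stay close, while the diamonds of Plk2 (-0.51), Gadd45a (-0.42) and Trp53inp1 (-1.11) lie to the left of their points.

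The transcript of p53 itself was not called. Trp53 (GRCm38 chromosome 11, 69580359 to 69591873) stood at 3196, 4208, 4483, 4239.6 and 4105 in CTRL and at 4601, 3945, 1364, 2225 and 4404 in D30. T1, T2 and T7 lay within or just above the CTRL range, and T4 and T5 lay below every CTRL tumor. The log2 fold change was -0.42 ± 0.31 (adjusted p = 0.520), and 0.10 without T4 and T5. Mdm2, the main negative regulator of p53 and a classical p53 target, stood at 1838, 1599, 1841, 1809 and 1831 in CTRL and at 1987, 1868, 2595, 3132 and 1825 in D30. Again T4 and T5 were the tumors away from the rest, now upward, and the change was 0.32 ± 0.19 (adjusted p = 0.404), or 0.09 without them. Mdm4, an MDM2 relative that blocks p53's activation domain, was 3436 ± 598 (SD, n = 5) in CTRL and 3008 ± 975 in D30, with T4 lowest at 1382 and a change of -0.26 ± 0.27, or -0.012 without T4 and T5.

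The log2 ratio of Mdm2 to Trp53 in each tumor brings both genes together. It was -1.17 ± 0.23 (SD, n = 5) in CTRL and -0.43 ± 1.05 in D30. T4 (0.93) and T5 (0.49) were the only tumors above 0, and the other D30 tumors, from -1.27 to -1.08, lay inside the CTRL range of -1.40 to -0.80. The difference of 0.75 was not significant (two-sided exact permutation test, p = 0.214, adjusted over 2 ratios 0.214; the smallest p possible is 0.00794), and it was -0.012 without T4 and T5 (exact permutation p = 0.964).

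Of the genes that halt the cell cycle, Btg2 rose and the others did not pass the test. Btg2 encodes an antiproliferative partner of the CCR4-NOT deadenylase (chromosome 1, 134075170 to 134079120, minus strand). It stood at 1247, 870.3, 1163, 986 and 1177 in CTRL and at 2065, 3318, 1711, 2936 and 2508 in D30. The lowest D30 tumor, T4, lay above the highest CTRL tumor. The log2 fold change was 1.18 ± 0.21, a 2.26-fold rise (adjusted p = 0.0103). It was 1.26 without T4 and T5 (adjusted p = 0.000877), and the adjusted p ranged from 0.00105 to 0.0435 as each tumor was left out in turn.

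Cdkn1a (p21), the CDK inhibitor through which p53 stops the cell in G1, stood at 509, 761, 814, 528 and 619 in CTRL and at 799, 830.5, 616, 7331 and 1177 in D30. T5 was several times above every other tumor. T7 and T2 also lay above the highest CTRL tumor, T2 by little, and T1 and T4 lay within the CTRL range. DESeq2 gave a log2 fold change of 1.73 and no adjusted p for Cdkn1a. In limma the results were as follows. The change was 1.02 ± 0.54 with an interval from -0.14 to 2.18 (adjusted p = 0.357), 0.39 without T5 and 0.54 without T4 and T5 (adjusted p = 0.118). Ccng1 (cyclin G1), a p53 target with little other regulation known, stood at 4088, 1906, 2081, 1990.1 and 2165 in CTRL and at 2328, 1945, 6954, 1614 and 1774 in D30. N1 and T4 were high in their groups and the others overlapped, for a change of 0.07 ± 0.37, or -0.22 without T4 and T5.

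Gadd45a, a growth arrest gene induced by DNA damage and by other stresses, was high in T4 (3198) and T5 (5335) only. The other D30 tumors ran from 702 to 843, below the CTRL range of 873 to 1438. Its change was 0.56 ± 0.51 with all tumors and -0.42 without T4 and T5, neither of them called. Plk2, a polo-like kinase gene, had the same arrangement. It stood at 1504, 1559, 1266, 1729.8 and 1429 in CTRL and at 1024, 1123, 2132, 3135 and 996 in D30, so T1, T2 and T7 lay below all CTRL tumors and T4 and T5 above. With all tumors the change was 0.01 ± 0.30, and without T4 and T5 it was -0.51, a fall that passed the test (adjusted p = 0.0425). Zmat3, an RNA-binding p53 target, was 838 ± 138 in CTRL and 705 ± 319 in D30 (-0.38 ± 0.32), with T4 (295) and T5 (459) lowest, and its change without them was 0.15.

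**Figure D2:**
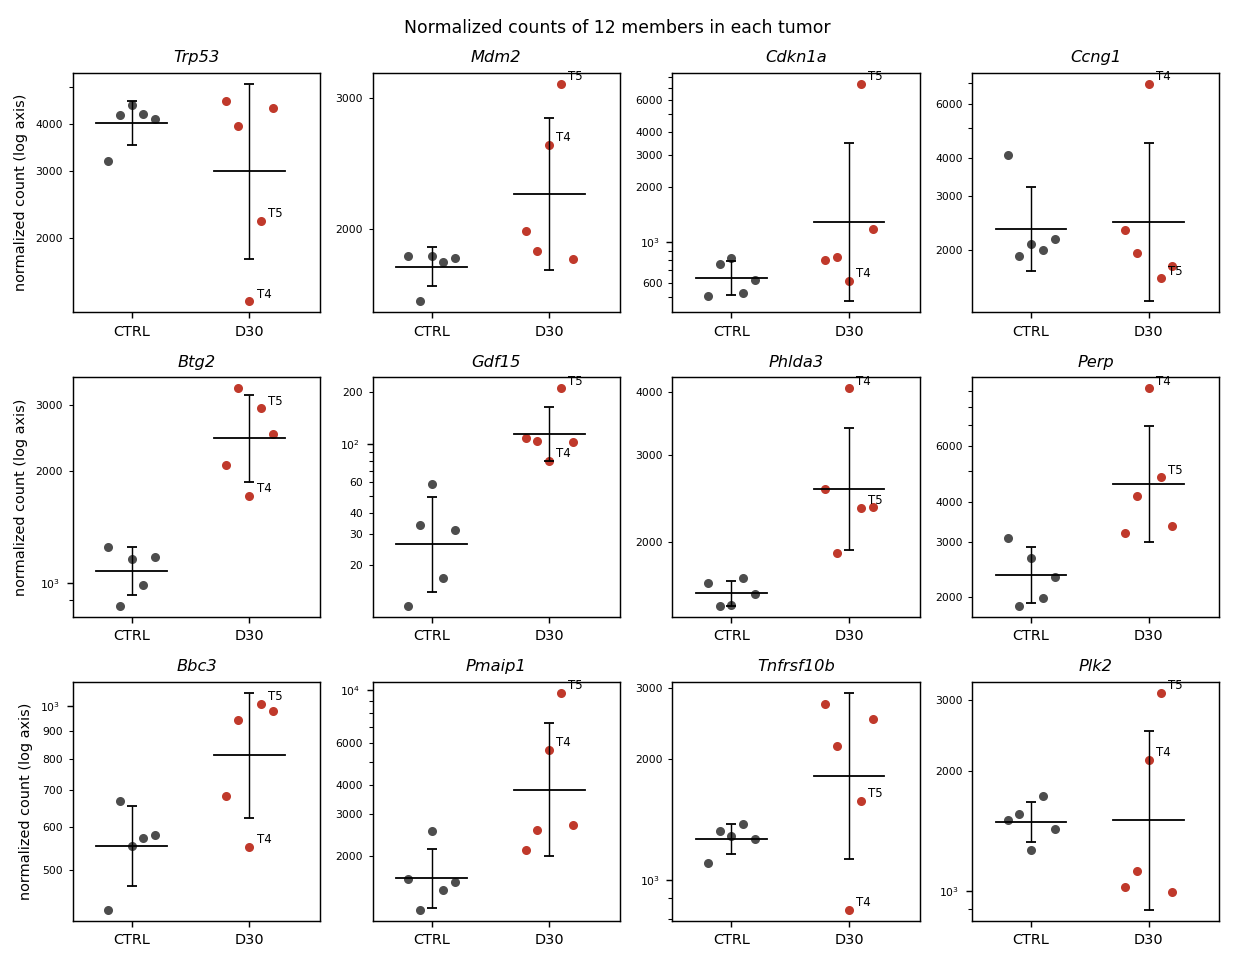
Normalized counts (y axis, log scale) of 12 genes in each of the 5 CTRL (grey) and 5 D30 (red) tumors, with T4 and T5 labelled; the line is the mean and the bars 1 SD of log2(normalized count + 1), drawn back on the count scale. Btg2, Gdf15, Phlda3 and Perp are separated between groups, Cdkn1a is by far highest in T5 (7331), and Plk2 splits into T4 and T5 above and T1, T2 and T7 below the CTRL tumors.

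Promoter sequences of 4 members are shown: Btg2 and Gdf15, which rose, and Mdm2 and Cdkn1a, 2 classical p53 targets that did not pass the test. Windows run from 250 bases before to 50 bases after the transcription start (RefSeq, GRCm38.p6) and are written 5′ to 3′ on the strand of the gene. Capitals mark exact matches to the p53 half-site RRRCWWGYYY (R is A or G, W is A or T, Y is C or T) or to the cAMP response element TGACGTCA. For Cdkn1a and Gdf15, which have 2 windows each, the one with the start farther upstream is printed.
Btg2, chr1:134079106-134079405, minus strand: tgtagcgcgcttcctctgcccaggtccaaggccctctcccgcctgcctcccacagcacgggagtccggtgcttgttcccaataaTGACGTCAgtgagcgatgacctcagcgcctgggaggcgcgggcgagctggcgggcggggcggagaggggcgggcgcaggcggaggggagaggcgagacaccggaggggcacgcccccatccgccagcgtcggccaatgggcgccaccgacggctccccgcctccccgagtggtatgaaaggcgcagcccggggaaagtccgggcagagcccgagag
Gdf15, chr8:70632407-70632706, minus strand: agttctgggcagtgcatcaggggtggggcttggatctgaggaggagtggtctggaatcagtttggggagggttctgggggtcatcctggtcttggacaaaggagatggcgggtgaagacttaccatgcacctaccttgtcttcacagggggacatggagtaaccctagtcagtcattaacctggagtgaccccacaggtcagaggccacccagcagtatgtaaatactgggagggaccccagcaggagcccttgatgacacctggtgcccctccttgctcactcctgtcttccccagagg
Mdm2, chr10:117710709-117711008, minus strand: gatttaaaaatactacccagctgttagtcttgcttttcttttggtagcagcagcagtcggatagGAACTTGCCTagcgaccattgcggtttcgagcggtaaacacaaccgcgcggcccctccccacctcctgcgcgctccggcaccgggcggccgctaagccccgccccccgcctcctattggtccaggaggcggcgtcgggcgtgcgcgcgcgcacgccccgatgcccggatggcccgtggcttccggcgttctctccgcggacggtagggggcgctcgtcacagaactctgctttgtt
Cdkn1a, chr17:29090729-29091028, plus strand: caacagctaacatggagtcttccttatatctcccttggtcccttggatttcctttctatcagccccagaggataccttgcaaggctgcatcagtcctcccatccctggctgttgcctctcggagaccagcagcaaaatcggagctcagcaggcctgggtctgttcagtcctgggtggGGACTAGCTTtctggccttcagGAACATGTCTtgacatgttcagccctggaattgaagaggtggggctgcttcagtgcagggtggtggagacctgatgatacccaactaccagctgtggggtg
Btg2 holds 1 TGACGTCA from position -166 to -159 and no p53 half-site in this window. Neither window of Gdf15 holds a match. Mdm2 has 1 p53 half-site at -186 to -177, and Cdkn1a has 2 exact ones, at -73 to -64 and -51 to -42, with 12 bases between them. The letters right after the second match of Cdkn1a, tgacatgttc, differ from a half-site in the first letter only and were not marked or counted. Pairs of exact half-sites at most 13 bases apart occur in 24 of 32851 windows of all genes, 0.0731%. Windows were found for 32 of the 39 members and number 46, with none for Ddb2, Perp, Pmaip1, Tnfrsf10b, Trp53inp1, Xpc and Zmat3. A p53 half-site stood in 11 of the 46, in 10 genes (Aen, Bax, Birc2, Ccng1, Cdkn1a, Ei24, Gadd45a, Mdm2, Sesn1 and Trp53), against 8.36% of all windows. TGACGTCA stood in 3 of the 46, those of Birc2, Btg2 and Plk2, against 1.79% of all windows. The element TGATGNAA, which the stress factors ATF4 and CHOP bind, stood in none of the 46 and in 3.97% of all. Pmaip1 and Tnfrsf10b, named above as targets of the integrated stress response, had no window to search. Both strands were searched and the motifs do not share letters in these windows. Such matches describe the letters only, and their part in the changes was not tested. No mismatch was allowed, so absence concerns exact matches in this window alone.

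Gdf15, a secreted stress cytokine of the TGF-β superfamily that acts on the brainstem receptor GFRAL, showed the largest fold change of the list. It was a low-level transcript (chromosome 8, 70629393 to 70632456, minus strand), at 11.6, 34.0, 58.5, 16.8 and 31.7 in CTRL and at 109, 104, 79.8, 211 and 103 in D30. All D30 tumors lay above all CTRL tumors, and T4 was the lowest of them. The log2 fold change was 2.08 ± 0.45, a 4.23-fold rise (adjusted p = 0.0253), and 1.96 without T4 and T5 (adjusted p = 0.0139). The call was near the threshold: the adjusted p reached 0.0762 as each tumor was left out in turn, and exceeded 0.05 without N1, N2, N5, N6, T2 or T7.

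The remaining stress, metabolism and repair genes did not pass the test. Sesn1 and Sesn2 encode sestrins, which restrain mTORC1 and are induced by p53 and, for Sesn2, by ATF4. Sesn1 was 678 ± 152 in CTRL and 661 ± 127 in D30, and Sesn2 was 446 ± 85.0 in CTRL and 645 ± 409 in D30, where T4 was lowest (201) and T5 highest (1308). The change of Sesn2 was 0.31 ± 0.39, and 0.37 without T4 and T5. Tigar, which lowers glycolytic flux by removing fructose-2,6-bisphosphate, was 1063 ± 133 against 1035 ± 344 (-0.12 ± 0.27). The nucleotide excision repair genes Ddb2 and Xpc, which sense damaged bases, changed by -0.12 ± 0.24 and -0.02 ± 0.31. Xpc was again set by T4 (708, against 2031 to 2325 in the other D30 tumors), and its value without T4 and T5 was 0.33.

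In the BCL2 family, the p53-inducible BH3-only genes Pmaip1 and Bbc3 had values above 0 (1.24 and 0.55) and Bid and Bcl2l11 values below 0 (-0.45 and -0.60) at an unadjusted p under 0.05, and none passed the adjusted threshold. Pmaip1 (NOXA), whose protein neutralizes MCL1, stood at 1606, 1191, 2557, 1439 and 1555 in CTRL and at 2117, 2581, 5596, 9755 and 2716 in D30. T4 and T5 were the highest, and only T1 lay below the highest CTRL tumor, N4. The change was 1.24 ± 0.38 (adjusted p = 0.109), and 0.61 without T4 and T5 (adjusted p = 0.0932). Bbc3 (PUMA), which binds all the pro-survival members, stood at 422, 670.1, 553, 571 and 578 in CTRL and at 684, 945, 552, 1009.6 and 979 in D30. T4 was the only D30 tumor within the CTRL range. The change was 0.55 ± 0.22 (adjusted p = 0.220), and it passed the test without T4 (0.69, adjusted p = 0.0422) and without T4 and T5 (0.63, adjusted p = 0.0489).

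Bid, which links death receptors to mitochondria once caspase-8 cleaves it, stood at 2003, 1903, 1859, 2025 and 1708 in CTRL and at 1216, 1509, 1709, 1118 and 1446 in D30. T4 fell at the lowest CTRL value and the other D30 tumors lay below all CTRL tumors, for a change of -0.45 ± 0.17 (adjusted p = 0.189) that passed the test without T4 (-0.53, adjusted p = 0.0449) but not without T4 and T5 (-0.45, adjusted p = 0.0564). Bcl2l11 (BIM), a BH3-only gene controlled by FOXO factors and by ERK rather than p53, stood at 1622, 2725, 1880.3, 3471 and 2280.3 in CTRL and at 1637, 1655, 1187, 1826 and 1409 in D30. The CTRL tumor N1 sat among the D30 tumors and the rest of CTRL lay above them (-0.60 ± 0.22, adjusted p = 0.189). The exons of Bid share 628 bases with Bcl2l13 on the opposite strand, and the counting by strand is not stated, so its reads are uncertain. The same holds for Cdkn1a, Bak1, Bcl2, Bad, Gadd45a, Ei24, Ddb2, Tigar and Casp9, whose exons overlap another gene on the opposite strand.

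The pore formers Bax and Bak1 were not called. Bax stood at 1704, 1546, 1949, 1305 and 1596 in CTRL and at 1519.7, 1677, 3048, 2358 and 2159 in D30. The high values were T4, T5 and T7, and T1 and T2 lay within the CTRL range (0.38 ± 0.21, adjusted p = 0.392, and 0.14 without T4 and T5). Bax shares 192 exonic bases with Gm45808 on the same strand. Bak1 was 1882 ± 408 in CTRL and 1772 ± 342 in D30. Bad, a BH3-only gene silenced by survival kinases, was 1478 ± 241 in CTRL and ran from 1156 to 4679.6 in D30, with T4 at the top (0.29 ± 0.33), and its change was 0.00065 without T4 and T5.

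Among pro-survival members, Mcl1, a short-lived inhibitor of apoptosis, stood at 11382, 7666, 8503, 7687 and 7844 in CTRL and at 10099.8, 10366, 22850.0, 14139 and 10223 in D30. The CTRL tumor N1 lay above 3 D30 tumors and the other CTRL tumors below all of D30. The change was 0.59 ± 0.24 (adjusted p = 0.234), and 0.26 without T4 and T5. Bcl2l1 (BCL-XL) stood at 7185, 8604, 7639, 8056 and 7151 in CTRL and at 4625, 5733, 9621, 14343 and 6750.3 in D30. T1, T2 and T7 lay below every CTRL tumor and T4 and T5 above every one, as for Plk2. The change was -0.03 ± 0.27 (adjusted p = 0.973) with all tumors and -0.45 (adjusted p = 0.0838) without T4 and T5. Bcl2, the founding member, stood at 1085, 1139, 905, 1346 and 949 in CTRL and at 838, 1219, 1027, 960.4 and 863 in D30. Its ranges overlapped almost wholly (-0.14 ± 0.18, adjusted p = 0.741).

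The log2 ratio of Bax to Bcl2, a pore former against an inhibitor, was 0.58 ± 0.42 (SD, n = 5) in CTRL and 1.10 ± 0.44 in D30. The CTRL tumors ran from -0.05 to 1.11 and the D30 tumors from 0.46 to 1.57, so the groups overlapped. The difference of 0.52 was not significant (two-sided exact permutation test, p = 0.0952, adjusted over 2 ratios 0.190). It ranged from 0.36 without N5 to 0.68 without T2 as each tumor was left out, where only the fit without T2 gave an unadjusted p under 0.05 (0.0317, exact test), and was 0.30 without T4 and T5 (exact permutation p = 0.357). Bax has 1576 exonic bases and Bcl2 9157, so a tumor's length trend enters this ratio. The ratio was highest in T4, where short genes were high, and lowest in N5, where they were low (median -0.47). With the length trend removed, the log2 fold change was 0.36 for Bax and 0.04 for Bcl2. The part of length in the ratio was not tested.

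Levels of the 10 BCL2 family members can be set side by side per kilobase of exon. On that scale, mean normalized counts per kilobase in CTRL were 2521 for Mcl1, 1685 for Bcl2l1, 1028 for Bax, 782 for Bak1, 611 for Pmaip1, 578 for Bad, 535 for Bid, 298 for Bcl2l11, 263 for Bbc3 and 118 for Bcl2. Of these 10 members Mcl1 and Bcl2l1 were thus the highest and Bcl2 the lowest, in CTRL as in D30, where Mcl1 was at 3960.1, Bcl2l1 at 1791 and Bcl2 at 107. In CTRL, Pmaip1, Bad and Bid lay close together, as did Bcl2l11 and Bbc3, and the spread of several of them over tumors exceeds the steps between neighbours. In D30 the mean of Pmaip1 was 1667, above that of Bax (1366).

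**Figure D3:**
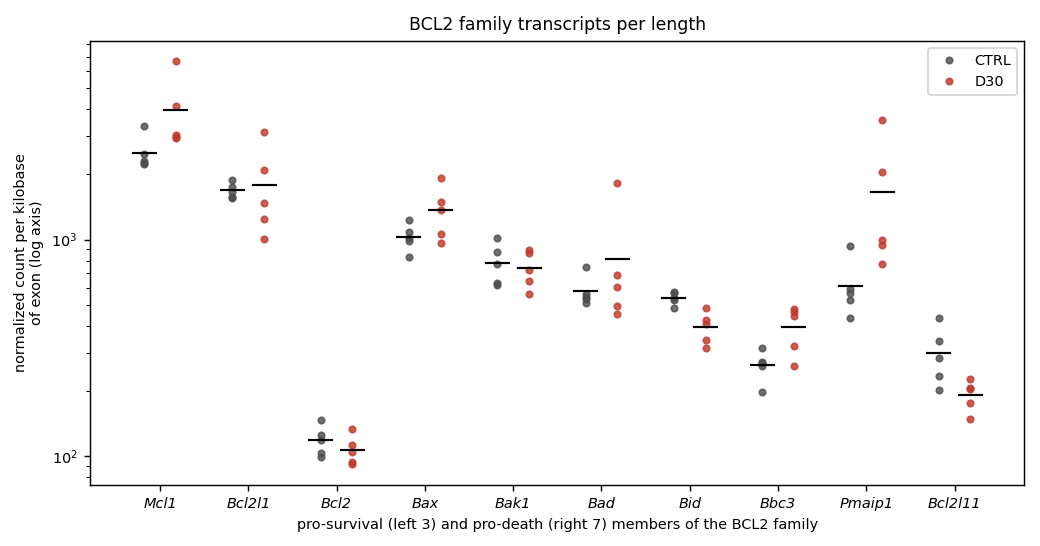
Normalized counts per kilobase of exon (y axis, log scale) of the 10 BCL2 family members in each CTRL (grey) and D30 (red) tumor, with the group mean as a line. Of the 10, Mcl1 and Bcl2l1 are the most abundant per length and Bcl2 the least, at 118 in CTRL and 107 in D30, and Pmaip1 spans the widest range among D30 tumors.

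Among death receptors and other effectors of death, Phlda3 and Perp were higher in every D30 tumor than in any CTRL tumor, without passing the adjusted threshold. Phlda3, a p53 target that blocks the binding of AKT to the membrane, stood at 1653, 1489.9, 1495, 1694 and 1574 in CTRL and at 2558, 1903, 4077, 2344 and 2352 in D30. T4 was the highest, and the change was 0.70 ± 0.20 (adjusted p = 0.0920), or 0.51 and past the test without T4 and T5 (adjusted p = 0.0378). Perp, a membrane protein of desmosomes that p53 and p63 induce and that epithelium carries, stood at 3073, 1881, 2663, 1996 and 2319.6 in CTRL and at 3195, 4195, 9165, 4794 and 3366 in D30. T4 was highest here too, and the gap between the groups, N1 against T1, was small. The change was 0.96 ± 0.27 (adjusted p = 0.0861), and 0.60 without T4 and T5 (adjusted p = 0.0517).

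Tnfrsf10b, the mouse receptor of TRAIL, was called or not depending on T4. It was 1271 ± 105 in CTRL, with a range from 1099 to 1379. In D30, T1 (2737), T2 (2149), T5 (1574) and T7 (2517) lay above every CTRL tumor and T4 (842) lay below every one. With all tumors the change was 0.52 ± 0.28 (adjusted p = 0.379). It passed the test without T4 (0.79, adjusted p = 0.0172) and without T4 and T5 (0.95, adjusted p = 0.00119). Fas, the receptor of Fas ligand, was a low transcript at 99.3 ± 51.4 in CTRL and 172.4 ± 137 in D30, with T4 at 414 (0.65 ± 0.44, adjusted p = 0.485, and 0.16 without T4 and T5).

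Trp53inp1, which drives p53 phosphorylation and autophagy-linked death, was split like Plk2. Its values were 2999, 1989, 1419.8, 2465 and 1793 in CTRL and 1016, 1113, 3721, 1806 and 764 in D30. T1, T2 and T7 lay below all CTRL tumors, T5 within and T4 above. The change was -0.54 ± 0.37 (adjusted p = 0.498), and without T4 and T5 it was -1.11, a fall that passed the test (adjusted p = 0.00723). Eda2r, a TNF receptor family gene on the X chromosome and a p53 target in several tissues, was low, at 124, 43.4, 48.4, 38.1 and 83.9 in CTRL and at 30.8, 42.4, 45.1, 13.7 and 28.8 in D30. The groups overlapped between 38.1 and 45.1, and the change was -1.01 ± 0.44 (adjusted p = 0.262). Aen, a nuclease induced by p53, and Ei24, an endoplasmic reticulum protein, were at 1051 ± 70.2 against 1039 ± 188 and at 3448 ± 330.0 against 4509 ± 1445, the latter with T4 at 7081 and a change of 0.16 without T4 and T5.

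The execution machinery showed no call. Apaf1, the scaffold of the apoptosome, was 1247 ± 25.7 in CTRL, the smallest SD of the list on the log2 scale (0.030), and 1375 ± 336 in D30 (0.10 ± 0.19). Casp8, the initiator behind death receptors, was 2414 ± 361 in CTRL and 3221 ± 914 in D30 (0.38 ± 0.21, adjusted p = 0.380). Casp9, the initiator that the apoptosome activates, was 961 ± 137 and 909 ± 263. The inhibitors of apoptosis Birc2 and Birc3, ubiquitin ligases of NF-κB signalling, changed by -0.06 ± 0.20 and -0.16 ± 0.17. Xiap, which inhibits caspases directly, changed by 0.09 ± 0.25, with T4 highest at 8864, and by 0.016 without T4 and T5.

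**Figure D4:**
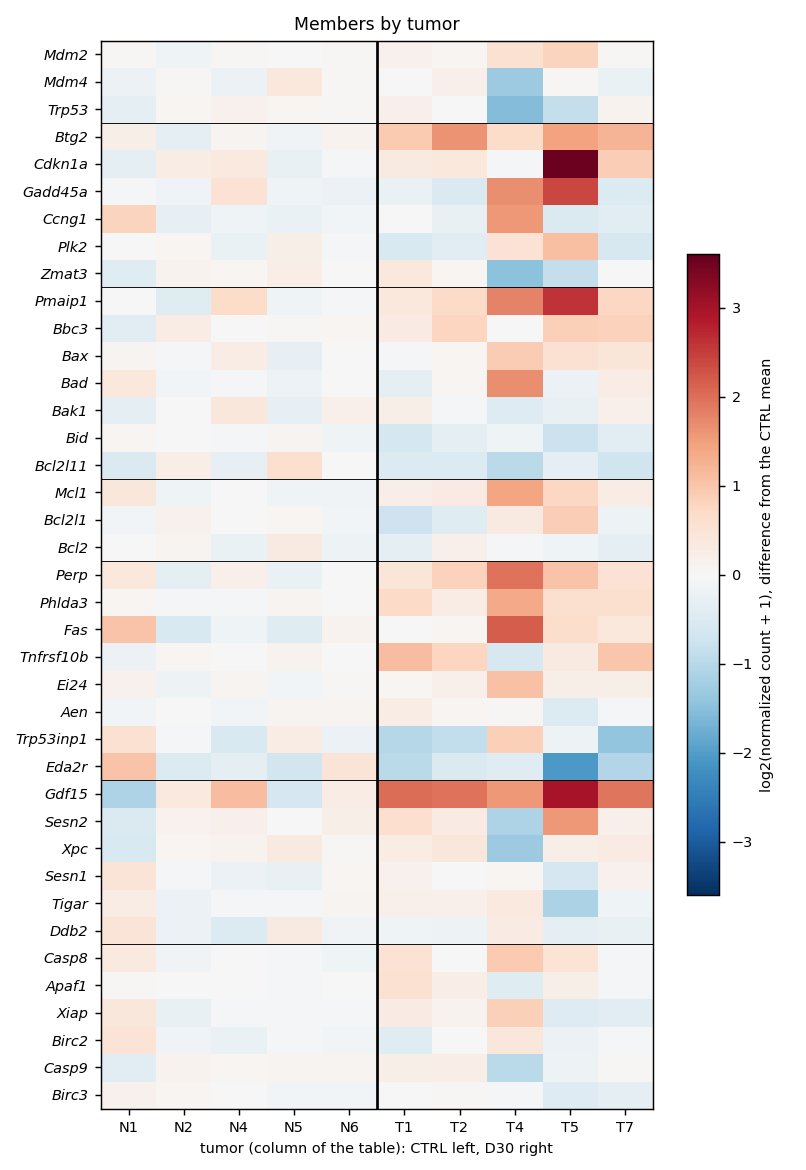
Log2(normalized count + 1) of the 39 genes in each tumor as the difference from the CTRL mean (color scale, log2 units), genes in rows grouped by role and tumors in columns. The columns T4 and T5 carry the strongest colors in both directions, while the rows of Btg2 and Gdf15 are above the CTRL mean in all 5 D30 tumors.

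The spread among D30 tumors was wide for most of the list. The median SD of log2 values over the 39 genes was 0.24 in CTRL, 0.52 in D30 and 0.20 in the D30 tumors other than T4 and T5. The SD was larger in D30 for 33 of 39 genes (84.6%), and for 84.4% of all tested genes, so the list did as the table did. T4 was highest for 12 of the 39 genes and lowest for 10, and T5 was highest for 9 and lowest for 8.

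In T5 the highest members relative to the mean of the other tumors were Cdkn1a, Gadd45a, Pmaip1, Gdf15 and Sesn2, and in T4 they were Fas, Ccng1, Bad, Perp and Gadd45a. Gadd45a was thus among the highest in both, 2.37 log2 units above that mean in T5 and 1.55 in T4, and Pmaip1 was 2.19 and 1.30 above it. The median deviation of the 13 shortest members was 0.83 in T4 and 0.41 in T5, and that of the 13 longest was -0.54 and -0.04. With the trend of exonic length removed from every tumor, Btg2 and Gdf15 were again the members called (3.28% of all genes).

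**Figure D5:**
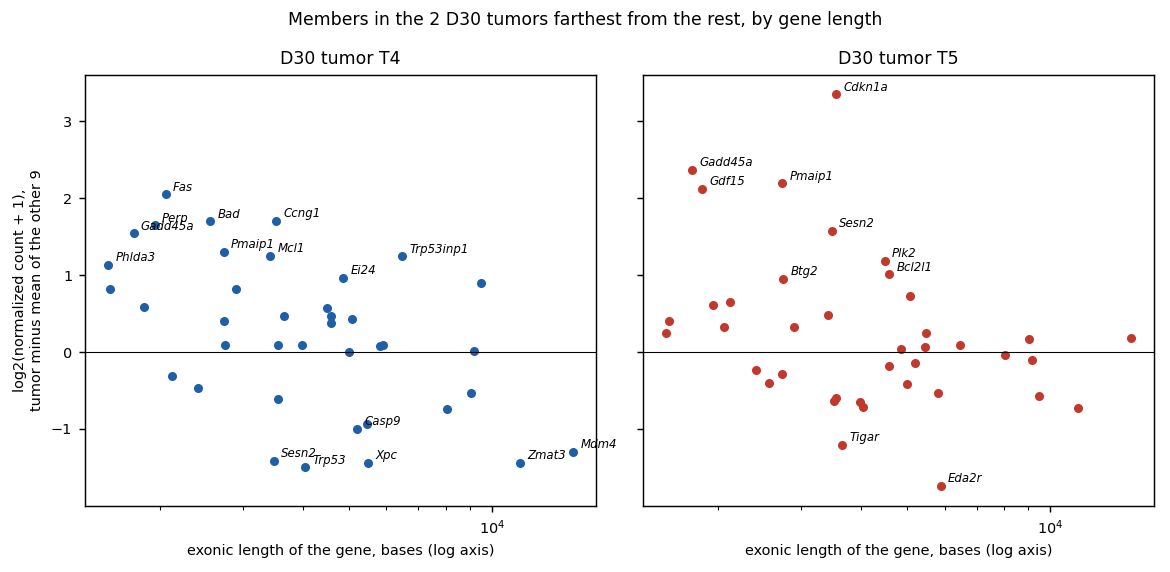
Difference of log2(normalized count + 1) from the mean of the other 9 tumors (y axis) against exonic length in bases (x axis, log scale) for the 39 genes, in T4 (blue) and T5 (red); genes beyond 0.95 are named. In T4 short genes such as Fas and Phlda3 lie above 0 and long ones such as Mdm4 and Zmat3 below, and in T5 Cdkn1a stands highest.

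Other genes of the pathway were described from lists of their own, for which 2.76% of all tested genes called is again the background. Of 40 further p53 targets, 39 were tested and 1 was called (2.56%), Ddit4 (REDD1), an mTORC1 inhibitor that hypoxia, glucocorticoids and ATF4 also induce. Its values were 3138, 3089.6, 3391, 2914 and 3288 in CTRL and 5535, 5643, 6044, 15929 and 5387 in D30. All D30 tumors were above all CTRL tumors, T5 far so, and the change was 1.14 ± 0.27 (adjusted p = 0.0449), a call lost when any of 8 tumors was left out. The groups also did not overlap for Fuca1 (0.69), Prkab2 (0.65), Dcxr (0.70), Abhd4 (0.24) and Rap2b (0.48), higher in D30, and for Polh (-0.59) and Tm7sf3 (-0.64), lower, none of them called. That makes 8 of 39 without overlap, against 6.19% of all tested genes. The median of that list was 0.03.

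Of 20 regulators and relatives of p53, 19 were tested and none was called by limma, with 2 at an unadjusted p under 0.05. Rpl11, a ribosomal protein that can hold MDM2 back from p53, was the only one whose groups did not overlap, at 10756 to 17103 in CTRL and 18418 to 39416 in D30 (0.80 ± 0.23, adjusted p = 0.0902), and DESeq2 called it. Of the 11 tested of 13 other BCL2 family genes, 1 was called (9.09%). It was Bcl2l14, which rose from 176 to 299.8 in CTRL to 356 to 811 in D30 (1.26 ± 0.26, adjusted p = 0.0208). Of 27 caspases and genes of death receptor signalling, 1 was called (3.70%). It was Endog, a mitochondrial nuclease, which rose from 159 to 252 in CTRL to 358 to 555 in D30 (1.06 ± 0.23, adjusted p = 0.0253). Both calls were lost when any of 4 tumors was left out and under library-size scaling. Not tested, for low values, were Spata18, Trp73, Hrk and Bcl2l10.

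Summed markers of 2 of the 9 cell types examined, tumor epithelium and endothelium, did not overlap between the groups, and 2 of 53 marker genes were called. In bulk tumors fewer cells of a type and less RNA per cell cannot be told apart. Summed markers of tumor epithelium (8 genes, keratins among them) ran from 224679 to 355284 normalized counts in CTRL and from 377561 to 500428 in D30, with 7 of 8 higher and none called. Epcam, at 16 to 191 in CTRL and 0 to 62 in D30, was the exception. Sox9 counted as higher (0.14) with T5 at 354, while the other D30 tumors ran from 23.6 to 37.3 and CTRL from 18.6 to 67.6. Fibroblast markers were lower for 8 of 8 genes, at 76539 to 135533 and 26981 to 102553. Endothelial markers ran from 10389 to 18223 and from 5169 to 9368, with 4 of 5 lower and 1 called. The called gene, Cdh5, was the largest part of that sum, at 7205 to 14529 and 2480 to 6142. Pecam1, Kdr and Tie1 were lower with overlapping ranges, and Vwf was higher (0.38), also with overlap. Macrophage markers ran from 22144 to 32817 and from 14470 to 28500.0, with 6 of 7 lower and 1 called. Neutrophil markers ran from 593 to 2878 in CTRL and from 697 to 12792 in D30, with 4 of 4 higher and none called. T5 was the highest, T4 stood at 3100, and the highest of the other D30 tumors stood at 5434. Summed T cell markers lay between 192 and 434 in CTRL and between 59.5 and 197 in D30. Markers of B cells (38.95 to 259.8 and 51.4 to 247), acinar cells (270.4 to 53514 and 144 to 5009) and adipocytes (2062 to 4413 and 2055 to 3295) overlapped. The part that these cell types have in the changes of Perp, Btg2, Gdf15 and the other members was not tested.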

How the data were processed

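RNA of 10 tumors was sequenced by the authors as strand-specific pairs of 150-base reads, trimmed with Trim Galore and aligned with STAR 2.7.0e. The submitters' processing notes name GRCm39 and the methods hg38, while the identifiers are mouse Ensembl genes. The annotation release and the counting settings are not given in the sources used here. What the authors deposited is a normalized signal, the reads of a gene in a tumor divided by a size factor. Undoing this step gave whole reads (tolerance 0.01) for 100.0% of values.

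The N columns were taken as CTRL and the T columns as D30, the only other group. The labels call the 5 tumors of a group independent biological replicates. Names and positions came from GENCODE M21 (GRCm38), which named 52083 genes (94.1%). Genes whose mean normalized count reached 1, 24560 in number, were tested with limma 3.58.1 (R 4.3.3, mean-variance trend, two-sided, Benjamini-Hochberg, threshold 0.05) on log2(normalized count + 1). Alternatives were edgeR 4.0.16 and DESeq2 1.42.0 on the recovered reads, a pseudocount of 0.5, other filters and scalings, removal of the length trend (loess, span 0.3) and leaving out tumors. Ratios were compared by exact permutation tests. In data simulated for D30 against CTRL with 200 changed genes of 23759 tested, limma recovered 13.0% of 2-fold and 85.0% of 4-fold changes, with 4 of 102 calls false. The simulation gave both groups the same spread per gene and held no tumors set apart like T4 and T5, so these shares may differ in the data. All 39 members are named, with values per tumor for those called, not overlapping or at an unadjusted p under 0.05 and for Trp53, Mdm2, Cdkn1a, Ccng1, Bax, Bbc3 and Bcl2, and some others were added where a tumor decided their value. Of the other lists, genes called or not overlapping are named. The members and lists were chosen with earlier results of these data known. An allele of the line is not reported here.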

Additional observations from a re-analysis of the deposited data

Results flagged for a closer look

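In 22 of 100 groups of 5 tumors, 1 tumor lay farther from the rest than Dixon's 95% critical value of 0.71 allows on the log2(normalized count + 1) scale, where chance alone flags about 1 in 20 groups, or 5. In 8 groups this was the CTRL tumor N1, in 6 the D30 tumor T4 and in 5 the D30 tumor T5.

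Among CTRL tumors, N1 was lowest for Trp53 (3196, the nearest other tumor at 4105), Casp9 (716, against 1002) and Abhd4 (1380.2, against 1682). It was highest for Ccng1 (4088, against 2165), Mcl1 (11382, against 8503), Bad (1899.9, against 1438), Casp8 (3037, against 2368) and Bcl2l14 (299.8, against 205). N2 was lowest for Mdm2 (1599, against 1809), N4 highest for Gadd45a (1438, against 982) and N5 highest for Prkab2 (800.3, against 717).

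Among D30 tumors, T4 was lowest for Mdm4 (1382, against 2878) and Xpc (708, against 2031). It was highest for Ccng1 (6954, against 2328), Fas (414, against 141), Ei24 (7081, against 3980.1) and Ddb2 (507, against 368). T5 was highest for Cdkn1a (7331, against 1177), Prkab2 (2360.4, against 1064), Ddit4 (15929, against 6044) and Abhd4 (2284, against 1938), and lowest for Sesn1 (439.6, against 677). No member that was called is among these genes.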

How the results depend on the processing

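Btg2 was called under every alternative run, and Gdf15 under all but the removal of N1, N2, N5, N6, T2 or T7. The number of members called ranged from 1 to 7 as each tumor was left out (7 without T4), and was 5 with DESeq2 and 7 without T4 and T5 together. Genes called over the whole table numbered 678. They ranged from 279 to 1573 as each tumor was left out, with 279 without N2, 340 without N5, 332 without N6, 433 without T7 and 1573 without T4. They were 1833 with DESeq2 and 2418 without T4 and T5. In the simulation, which gave both groups the same spread, 44 of 181 DESeq2 calls were false. With library-size scaling 27.8% of the 864 genes called were higher in D30, against 50.7% of the 678, and Bid passed the test. The median over all genes was then -0.27 and that of the members -0.15. With edgeR 64.6% of 707 were higher.

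Directions turned for members not called with all tumors. Without T4 and T5 together, the log2 fold change was 0.10 for Trp53, -0.22 for Ccng1, 0.10 for Bak1, 0.11 for Sesn1, 0.15 for Zmat3, 0.090 for Aen, -0.42 for Gadd45a, -0.51 for Plk2, 0.33 for Xpc, 0.069 for Tigar and 0.17 for Casp9. With library-size scaling it was -0.15 for Ccng1, -0.21 for Plk2, -0.12 for Apaf1 and -0.14 for Xiap, and with upper-quartile scaling 0.017 for Bcl2l1, 0.0078 for Sesn1, 0.011 for Aen and 0.023 for Xpc. With edgeR it was 0.10 for Bcl2l1 and 0.077 for Xpc, with DESeq2 0.088 for Bcl2l1 and 0.063 for Xpc, and with the length trend removed 0.043 for Bcl2, 0.067 for Bcl2l1, 0.045 for Sesn1, 0.089 for Aen, 0.095 for Xpc and 0.033 for Birc2. As each tumor was left out, the values that changed sign ranged from -0.30 to 0.28 for Ccng1, from -0.16 to 0.020 for Bak1, from -0.26 to 0.15 for Bcl2l1, from -0.053 to 0.45 for Bad, from -0.11 to 0.10 for Sesn1, from -0.0032 to 0.67 for Sesn2, from -0.11 to 0.080 for Aen, from -0.25 to 0.16 for Plk2, from -0.16 to 0.30 for Xpc, from -0.23 to 0.14 for Tigar, from -0.0067 to 0.24 for Apaf1, from -0.23 to 0.082 for Casp9, from -0.18 to 0.062 for Birc2 and from -0.10 to 0.23 for Xiap. The cause was not tested. The difference in the Bax to Bcl2 ratio ranged from 0.36 to 0.68 in the same way. That in the Mdm2 to Trp53 ratio was -0.012 without T4 and T5. No paired analysis was possible because the numbers in the column names differ from the replicate numbers in the labels.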
